A study of Homo sapiens with 21 samples.

Results

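The genes described here act in mitosis and chromosome segregation: 57 genes were listed by function, from the cyclin-dependent kinase of mitotic entry to the proteins that cut the daughter cells apart, and 55 of them were measured among 12165 genes tested. UBE2C and ANLN were not analysed here. The genes were taken by symbol, and each was read from its probe set with the highest mean log2 intensity over all arrays. The 21 Affymetrix arrays covered 3 established lines of human acute myeloid leukaemia: the monocytic MOLM-14, in which FLT3, a receptor tyrosine kinase, is known to hold an internal tandem duplication, the monocytic U937, first grown from a lymphoma, and the promyelocytic HL-60. In each line 3 arrays came from cells transduced with a hairpin against luciferase (shLuc), 2 from cells with the hairpin shSYK_1 and 2 from cells with shSYK_2, both directed at the tyrosine kinase SYK. Puromycin (1 µg/ml) was given to all of them, controls included, 48 h after the virus, and the RNA is of day 5. The series concerns SYK in the regulation of FLT3. The treatment protocol says that the control was transduced 3 times and each SYK hairpin 2 times in a line, and beyond that the labels do not say what a replicate is. The p-values measure only the spread between these samples, which may be technical.

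Mitosis is driven by CDK1 bound to its A and B type cyclins, which Aurora, Polo and other kinases help to switch on. Motor proteins of the kinesin family and other microtubule-binding proteins build the spindle, kinetochores attach chromosomes to it, and the spindle checkpoint holds back the anaphase-promoting complex (APC/C) until every chromosome is attached. Most of these genes are transcribed in a wave before division, held down in resting cells by the DREAM complex and switched on by B-MYB and FOXM1, so their RNA in a culture is widely used as a measure of how much the cells divide. In RNA from a whole culture, fewer cells in mitosis and less RNA in each such cell cannot be told apart.

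The sequences shown first are the target sites of the 2 SYK hairpins, since the results differ by hairpin. They are 21 bases of the SYK transcript each, given in the labels and printed 5′ to 3′.
shSYK_1: gcagcagaacagacatgtcaa
shSYK_2: gcaggccatcatcagtcagaa

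Many promoters of such genes share the CHR element, to which the DREAM and B-MYB complexes bind, and the CCAAT box, to which NF-Y binds. RefSeq promoter windows (GRCh38.p14, 300 bases of which the last 50 follow the annotated start) were found for 48 of the 55 genes. The letters TTTGAA of the CHR element, on either strand, were in a window of 33 of these 48 genes (68.8%), against 15.4% of the 9711 tested genes with a window. CCAAT, on either strand, was in a window of 37 genes (77.1%) against 44.3%, and 27 genes (56.2%) had both against 8.52%. Of all 35116 promoter windows of the table, 15.2% held TTTGAA and 34.6% CCAAT. These are matches of letters, which can overlap in a window, and no binding was measured. The 120 bases before the start are shown for 5 genes, 4 with both motifs close to the start and TRIP13, which had the largest changes with shSYK_2 and neither motif in its window. The 2 motifs are in capitals, and CCAAT on the opposite strand reads ATTGG.
CCNB2, chr15:59105026-59105145, plus strand: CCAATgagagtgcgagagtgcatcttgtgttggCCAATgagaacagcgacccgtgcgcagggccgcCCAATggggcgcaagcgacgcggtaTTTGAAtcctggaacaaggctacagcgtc
PLK1, chr16:23678769-23678888, plus strand: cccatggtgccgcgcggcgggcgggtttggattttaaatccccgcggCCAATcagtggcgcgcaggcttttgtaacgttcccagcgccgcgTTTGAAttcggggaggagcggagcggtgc
KIF4A, chrX:70289984-70290103, plus strand: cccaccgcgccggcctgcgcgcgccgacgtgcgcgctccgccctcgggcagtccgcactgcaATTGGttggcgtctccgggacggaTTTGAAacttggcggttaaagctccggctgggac
MKI67, chr10:128126424-128126543, minus strand: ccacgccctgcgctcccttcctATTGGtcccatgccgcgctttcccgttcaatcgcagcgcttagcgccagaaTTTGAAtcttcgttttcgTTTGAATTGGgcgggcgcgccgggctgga
TRIP13, chr5:892764-892883, plus strand: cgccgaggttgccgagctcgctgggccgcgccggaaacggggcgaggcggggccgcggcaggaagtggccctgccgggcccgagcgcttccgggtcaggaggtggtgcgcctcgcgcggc
The CHR element began 29 bases before the start in CCNB2 and PLK1 and 34 bases before it in KIF4A, and MKI67 had it at 47 and at 29 bases.

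**Figure D1:**
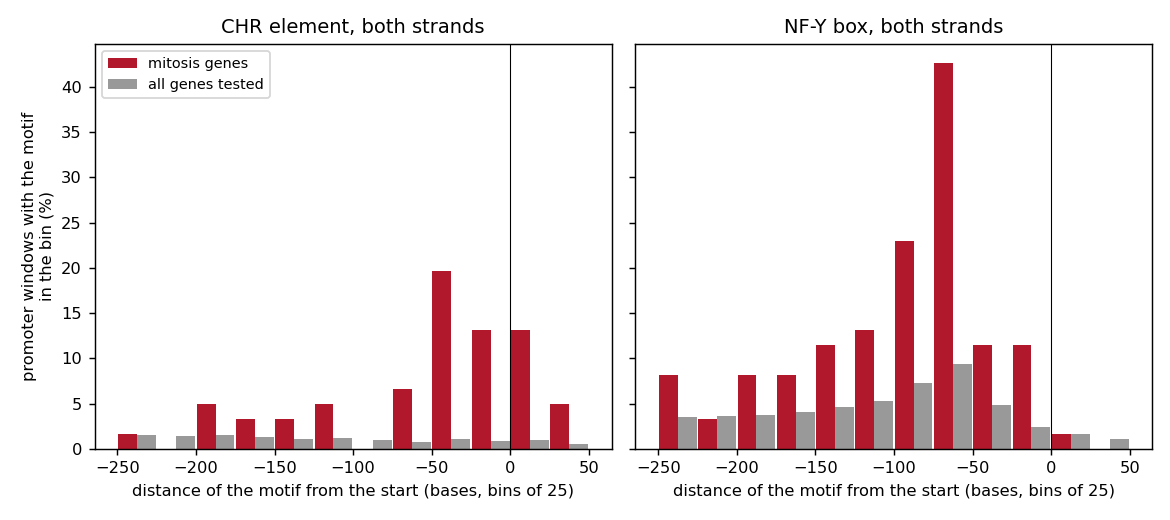
Share of promoter windows (percent, vertical axis) that hold the CHR element (left) or the NF-Y box (CCAAT, right) in each bin of 25 bases of distance from the annotated start (horizontal axis), for 61 windows of 48 mitosis genes (red) and 14283 windows of all genes tested (grey). The element was most frequent between 50 and 25 bases before the start (19.7% of mitosis windows against 1.04%) and the box between 75 and 50 bases before it (42.6% against 9.36%).

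SYK itself was low on every array with a SYK hairpin. Its log2 intensity in MOLM-14 was 8.49, 8.42 and 8.44 with shLuc, 6.16 and 6.16 with shSYK_1 and 5.62 and 5.35 with shSYK_2. In U937 SYK was 8.66, 8.70 and 8.70 with shLuc, 7.02 and 6.97 with shSYK_1 and 6.57 and 6.55 with shSYK_2. In HL-60 SYK was 8.91, 9.05 and 9.0 with shLuc, 7.04 and 7.0 with shSYK_1 and 6.66 and 6.90 with shSYK_2. On this probe set the 3 groups of each line did not overlap, and the shSYK_2 arrays were below the shSYK_1 arrays. The SYK change with shSYK_1 and then shSYK_2 was -2.29 and -2.96 log2 in MOLM-14, -1.68 and -2.13 in U937 and -1.97 and -2.21 in HL-60, and all 6 falls passed (limma adjusted p below 0.05). Without HL-60 shSYK_2 replicate 1, described next, the last value was -2.09. The other SYK probe set changed by -1.85 and -2.05 in MOLM-14, -1.70 and -2.06 in U937 and -1.97 and -1.86 in HL-60, so the order of the hairpins in HL-60 differed between the probe sets. The bearing of the SYK level on the hairpin differences below was not tested.

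Median intensities of the arrays were 18.4 to 20.6, and upper quartiles 134.49 to 139.77, apart from HL-60 shSYK_2 replicate 1 at 122.3. The labels of that array conflict, since its title and treatment name shSYK_2 and its source name shSYK_1. It was kept in shSYK_2, and HL-60 results with this hairpin are given with and without it. Its correlation with its replicate over all genes tested was 0.994, against 0.997 to 0.998 between the replicates of the other groups. Of 13 measured myeloid genes, 9 were above the median gene in their mean over the arrays. Of these, MPO makes an enzyme of primary granules, TYROBP a signalling adaptor, CEBPA a myeloid transcription factor and PTPRC the leukocyte marker CD45. The marker lists of other cells (erythroid, megakaryocytic, B, T or NK, stromal or epithelial) averaged 2.99 to 3.82 log2 on the arrays, below the array medians of 4.20 to 4.36, and NKG7 was the one gene of these lists above the median gene.

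The main question of these data for the mitosis genes was whether each hairpin changed them, and whether it did so alike in the 3 lines. With shSYK_2 in U937 nearly the whole set went down: 53 of 55 genes fell and 0 rose (limma adjusted p below 0.05), with a median log2 change of -0.77, while 7.92% of all genes tested fell, 8.32% rose and their median was 0.01. With shSYK_2 in MOLM-14, 43 fell and 0 rose (median -0.43), against 8.12% of all genes that fell and 8.47% that rose. With the same hairpin in HL-60, 5 fell and 3 rose (median -0.09), against 11.4% and 10% of all genes, so the share of mitosis genes that fell was close to the background there.

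With shSYK_1, MOLM-14 was the one line in which more of the genes fell than rose. There 29 genes fell and 1 rose (median -0.24), against 12.5% and 13% of all genes. In U937, 2 fell and 14 rose (median 0.10), against 8.37% and 8.53%. In HL-60, 4 fell and 12 rose (median 0.06), against 11.8% and 12.5%. The comparisons of both hairpins with shLuc share the control arrays of their line.

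Several of these counts rest on few arrays. The share of all genes called also changed between these fits, so a changed count alone is not read as a result about the mitosis genes. With shSYK_1 in MOLM-14, 19 genes were called without MOLM-14 shSYK_1 replicate 2, in place of 30. With shSYK_1 in U937, where 16 were called, the count was 5 without shSYK_1 replicate 1 (2 lower, 3 higher) and 9 (2 lower, 7 higher) without either shSYK_1 replicate 2 or shLuc replicate 3. With shSYK_1 in HL-60, where 16 were called, it was 8 without shSYK_1 replicate 1 (2 lower, 6 higher) and 9 without replicate 2 (1 lower, 8 higher). With shSYK_2 in HL-60, where 8 were called, 1 fell and 2 rose without shSYK_2 replicate 1, the array with conflicting labels (TRIP13 down, NDC80 and NUSAP1 up). The HL-60 calls of CCNB1, CKS2, UBE2S and RACGAP1 (down) and of PTTG1 and NCAPG (up) with shSYK_2, given below, did not pass without that array. Without shSYK_2 replicate 2, 15 fell and 2 rose, and without HL-60 shLuc replicate 3, 5 were called. With the array placed in shSYK_1, TRIP13 alone was called for shSYK_2 in HL-60. For shSYK_1 in HL-60, 4 genes then fell and 4 rose, in place of 4 and 12, so the excess of rises was not seen, and for shSYK_1 in U937 2 fell and 8 rose.

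The values of single arrays show the same order. The median difference of the 55 genes from the shLuc mean of their line was -0.764 and -0.768 on the U937 shSYK_2 arrays and -0.423 and -0.441 on the MOLM-14 shSYK_2 arrays. It was -0.233 and -0.242 on the MOLM-14 shSYK_1 arrays, 0.125 and 0.0647 on those of U937 and 0.0636 and 0.0568 on those of HL-60. The HL-60 shSYK_2 arrays were at -0.126 (replicate 1) and -0.0272 (replicate 2). All 55 genes were lower on both U937 shSYK_2 arrays than on every U937 shLuc array, as were 22.3% of all genes tested (7.92% were called lower). In MOLM-14 this held for 52 genes, against 20.7% of all genes (8.12% called lower). In HL-60, 22 genes were below every shLuc array with shSYK_2 and 9 above, against 22.2% and 20.8% of all genes (11.4% and 10% called). The replicates of a group were close to each other except in this last group.

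**Figure D2:**
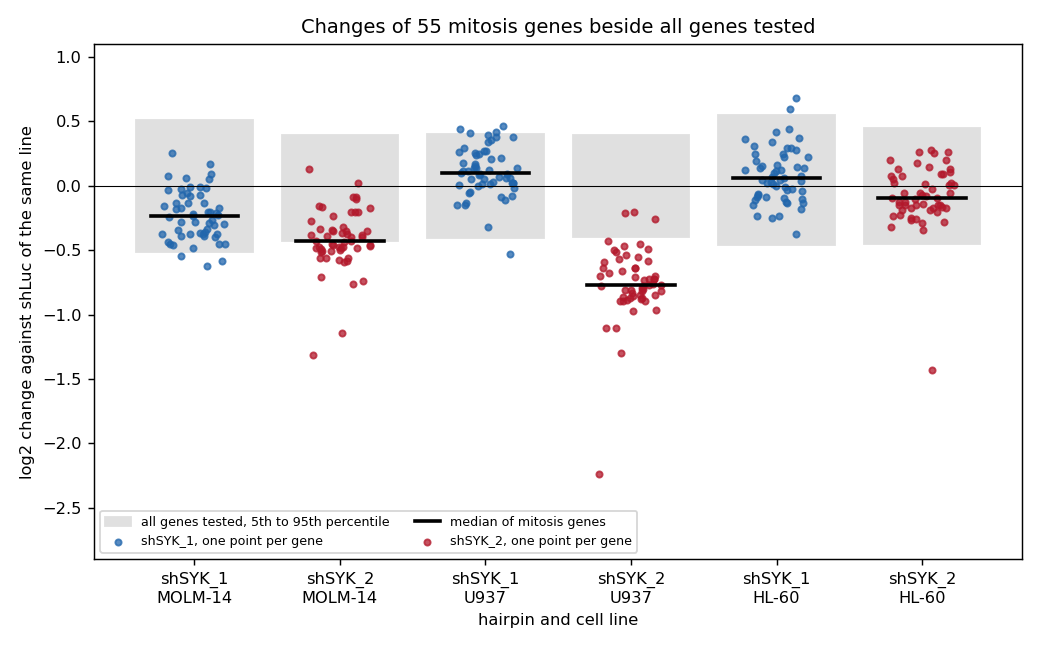
Log2 change against the shLuc arrays of the same line (vertical axis) of the 55 mitosis genes for each hairpin and line (horizontal axis). Each point is a gene (blue shSYK_1, red shSYK_2), black lines are medians and grey bars span the 5th to the 95th percentile of all genes tested; the red points of U937 (median -0.77) lie mostly below the grey bar.

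Averaged over the lines, 54 of the 55 genes fell with shSYK_2 and 0 rose (median -0.41), against 14.7% and 15.6% of all genes. BUB3 was the gene not called (-0.10, SE 0.0376, limma adjusted p = 0.0576). Without HL-60 shSYK_2 replicate 1 the number that fell was 53. With shSYK_1, 13 fell and 12 rose (median -0.03), against 17.4% and 18.2%. For 12 genes the average rose with shSYK_1 and fell with shSYK_2. These were CCNB2, CDC25C, NDC80, PTTG1, ESPL1, KIF20A, KIF4A, KIFC1, DLGAP5, SPAG5, MKI67 and ECT2. The share of all genes with this pattern was not counted. Under several alternatives the shSYK_1 call of DLGAP5 and CDC25C was lost, as was the shSYK_2 call of NDC80 and CDC25C. On other MKI67 probe sets the average shSYK_1 change was 0.01, 0.32 and 0.05, of which 0.32 passed. Only CKS1B, CKS2, BIRC5 and KIF14 had values below 0 in all 6 combinations of hairpin and line, and 0 genes were called lower in all 6. For these patterns too the share of all genes was not counted. On another BIRC5 probe set the HL-60 value with shSYK_2 was 0.095, which did not pass.

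**Figure D3:**
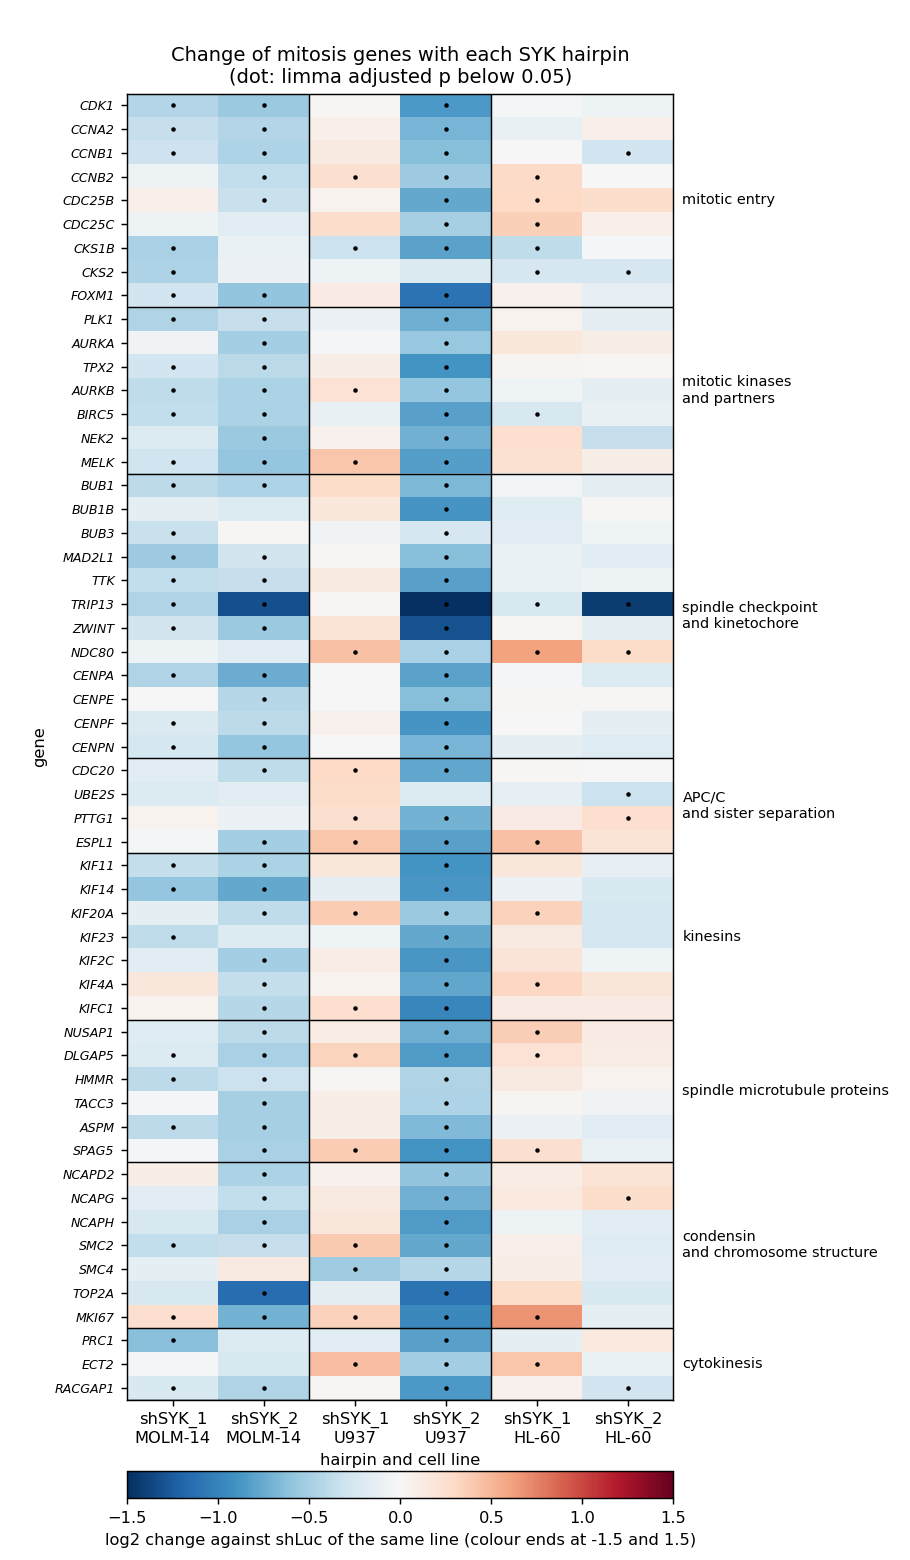
Log2 change of each of the 55 mitosis genes (rows, by role) with each SYK hairpin in each line (columns) against shLuc of the same line. Blue is lower and red higher, dots mark limma adjusted p below 0.05, and the colour scale ends at a change of 1.5, which TRIP13 passes in U937 (-2.24).

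The background of the counts by role is as above. With shSYK_2 the shares of all genes that fell and rose were 7.92% and 8.32% in U937. They were 8.12% and 8.47% in MOLM-14 and 11.4% and 10% in HL-60. With shSYK_1 they were 12.5% and 13% in MOLM-14, 8.37% and 8.53% in U937 and 11.8% and 12.5% in HL-60. The roles hold few genes, so small counts are not read as results about a role. Genes of mitotic entry fell with shSYK_2 in U937 (8 of 9, median -0.70) and in MOLM-14 (6 of 9, -0.37). With shSYK_1, 6 fell in MOLM-14, and the calls in U937 (1 lower, 1 higher) and HL-60 (2 lower, 3 higher) went both ways. CDK1, the kinase that starts mitosis, changed by -0.44 with shSYK_1 and -0.56 with shSYK_2 in MOLM-14, 0.02 and -0.86 in U937 and -0.03 and -0.08 in HL-60, of which the MOLM-14 values and the U937 shSYK_2 value passed. Its partner cyclins CCNA2 and CCNB1 passed in the same 3 comparisons (CCNA2 -0.35, -0.44 and -0.70, and CCNB1 -0.31, -0.46 and -0.64), and CCNB1 also fell with shSYK_2 in HL-60 (-0.29). The other CCNA2 probe set also fell in HL-60, by -0.27 with shSYK_1 and -0.29 with shSYK_2. Cyclin B2 (CCNB2) rose with shSYK_1 in U937 (0.24) and HL-60 (0.29) and fell with shSYK_2 in MOLM-14 (-0.37) and U937 (-0.54). CDC25B, a phosphatase that activates CDK1, fell with shSYK_2 in MOLM-14 (-0.34) and U937 (-0.77) and rose with shSYK_1 in HL-60 (0.29).

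FOXM1, a transcription factor that switches on many genes of this set, fell with shSYK_2 in both monocytic lines. FOXM1 log2 intensity in MOLM-14 was 6.65, 6.64 and 6.67 with shLuc, 6.42 and 6.31 with shSYK_1 and 6.05 and 6.07 with shSYK_2. In U937 FOXM1 was 6.50, 6.45 and 6.49 with shLuc, 6.67 and 6.54 with shSYK_1 and 5.38 and 5.38 with shSYK_2. In HL-60 FOXM1 was 6.64, 6.73 and 6.77 with shLuc, 6.79 and 6.77 with shSYK_1 and 6.56 and 6.61 with shSYK_2. The shSYK_2 arrays lay below every shLuc array in all 3 lines, by a wide gap in U937 and a narrow gap in HL-60. FOXM1 changed by -1.10 in U937 (SE 0.0618, limma adjusted p = 3.65e-09), -0.59 in MOLM-14 and -0.13 in HL-60, which did not pass (limma adjusted p = 0.154).

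CKS1B makes a small subunit of cyclin-dependent kinases and fell with shSYK_1 in all 3 lines. CKS1B log2 intensity in MOLM-14 was 10.33, 10.31 and 10.31 with shLuc, 9.78 and 9.88 with shSYK_1 and 10.21 and 10.22 with shSYK_2. In U937 CKS1B was 10.58, 10.56 and 10.58 with shLuc, 10.32 and 10.19 with shSYK_1 and 9.78 and 9.77 with shSYK_2. In HL-60 CKS1B was 10.44, 10.41 and 10.48 with shLuc, 9.99 and 10.14 with shSYK_1 and 10.38 and 10.46 with shSYK_2. The shSYK_1 arrays were below every shLuc array in all 3 lines, and in MOLM-14 and HL-60 they were also below the shSYK_2 arrays. The shSYK_1 changes were -0.49 (MOLM-14), -0.32 (U937) and -0.38 (HL-60), and with shSYK_2 it fell in U937 (-0.80). Averaged over the lines its difference between hairpins was 0.09 (SE 0.0404, limma adjusted p = 0.111). The near relative CKS2 fell with shSYK_1 in MOLM-14 (-0.46) and with both hairpins in HL-60 (-0.25 and -0.25), and was at -0.21 with shSYK_2 in U937, which did not pass.

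CDC25C, another activating phosphatase of CDK1, lay at low intensity. CDC25C log2 intensity in MOLM-14 was 5.75, 5.64 and 5.58 with shLuc, 5.40 and 5.75 with shSYK_1 and 5.50 and 5.49 with shSYK_2. In U937 CDC25C was 5.21, 5.17 and 5.25 with shLuc, 5.56 and 5.38 with shSYK_1 and 4.63 and 4.81 with shSYK_2. In HL-60 CDC25C was 4.92, 5.11 and 4.83 with shLuc, 5.40 and 5.23 with shSYK_1 and 5.03 and 5.03 with shSYK_2. With shSYK_1 it was above every shLuc array in U937 and HL-60, and with shSYK_2 it was below every shLuc array in MOLM-14 and U937. The rise in HL-60 (0.36) and the fall in U937 (-0.50) passed. The other 2 probe sets of CDC25C, at mean log2 values of 3.78 and 3.19, changed by -0.16 and -0.05 with shSYK_2 in U937.

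All 7 mitotic kinases and partners fell with shSYK_2 in both MOLM-14 and U937 (medians -0.48 and -0.73), and 0 fell in HL-60. With shSYK_1, 5 fell in MOLM-14, 2 rose in U937 and 1 fell in HL-60. AURKA, the Aurora kinase of the spindle poles, fell with shSYK_2 in MOLM-14 (-0.51) and U937 (-0.57) and was at -0.05, -0.02 and 0.16 with shSYK_1, none of which passed. TPX2, which activates AURKA on spindle microtubules, fell with both hairpins in MOLM-14 (-0.28 and -0.40) and with shSYK_2 in U937 (-0.90). PLK1, the Polo kinase of mitotic entry, did likewise (-0.46, -0.35 and -0.73). AURKB, the Aurora kinase of the centromere, fell in those same comparisons (-0.38, -0.48 and -0.58) and rose with shSYK_1 in U937 (0.22).

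NEK2, a kinase that parts the centrosomes, was low with shSYK_2 in the monocytic lines. NEK2 log2 intensity in MOLM-14 was 8.09, 7.91 and 7.83 with shLuc, 7.73 and 7.76 with shSYK_1 and 7.42 and 7.35 with shSYK_2. In U937 NEK2 was 8.14, 7.91 and 7.90 with shLuc, 8.05 and 8.04 with shSYK_1 and 7.22 and 7.31 with shSYK_2. In HL-60 NEK2 was 7.13, 7.13 and 6.98 with shLuc, 7.44 and 7.22 with shSYK_1 and 6.44 and 7.03 with shSYK_2. Groups with shSYK_2 lay below shLuc in MOLM-14 and U937, and in HL-60 they overlapped. The changes with shSYK_2 were -0.56 (SE 0.132), -0.72 and -0.35, of which the HL-60 value did not pass (limma adjusted p = 0.0730). Without HL-60 shSYK_2 replicate 1 the HL-60 value was -0.05.

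BIRC5 makes survivin, which brings AURKB to the centromere. BIRC5 log2 intensity in MOLM-14 was 8.18, 8.05 and 8.27 with shLuc, 7.76 and 7.84 with shSYK_1 and 7.71 and 7.68 with shSYK_2. In U937 BIRC5 was 7.03, 7.12 and 7.08 with shLuc, 7.01 and 6.92 with shSYK_1 and 6.22 and 6.31 with shSYK_2. In HL-60 BIRC5 was 8.42, 8.49 and 8.46 with shLuc, 8.25 and 8.19 with shSYK_1 and 8.33 and 8.37 with shSYK_2. Every SYK hairpin array was below every shLuc array of its line. BIRC5 fell with both hairpins in MOLM-14 (-0.37 and -0.47), with shSYK_2 in U937 (-0.81) and with shSYK_1 in HL-60 (-0.24). Its 3 probe sets differed in size: with shSYK_1 the probe set at a mean log2 intensity of 6.62 changed by -1.07, -0.995 and -0.89 in the 3 lines and the one at 6.92 by -0.37, -0.12 and -0.21. With the mean of the 3 probe sets the average difference between hairpins was 0.024 in place of -0.23, and its sign turned.

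MELK, a kinase expressed in dividing cells, moved in opposite directions with the hairpins in U937. MELK log2 intensity in MOLM-14 was 8.05, 7.99 and 7.96 with shLuc, 7.75 and 7.65 with shSYK_1 and 7.35 and 7.49 with shSYK_2. In U937 MELK was 7.14, 6.97 and 7.11 with shLuc, 7.63 and 7.33 with shSYK_1 and 6.22 and 6.25 with shSYK_2. In HL-60 MELK was 7.41, 7.56 and 7.37 with shLuc, 7.71 and 7.63 with shSYK_1 and 7.50 and 7.57 with shSYK_2. The shSYK_1 arrays were above shLuc in U937 and HL-60 and below it in MOLM-14. MELK rose by 0.41 with shSYK_1 in U937 (SE 0.0891, limma adjusted p = 0.00374) and fell with shSYK_1 in MOLM-14 (-0.30) and with shSYK_2 in MOLM-14 (-0.59) and U937 (-0.83).

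Of 12 genes of the spindle checkpoint and kinetochore, 12 fell with shSYK_2 in U937 (median -0.75), 9 in MOLM-14 (-0.41) and 1 in HL-60 (-0.15). With shSYK_1, 9 fell in MOLM-14 (-0.31) and 1 rose in U937. TRIP13, an ATPase that remodels the checkpoint protein MAD2, had the largest change of all 55 genes. TRIP13 log2 intensity in MOLM-14 was 8.70, 8.74 and 8.83 with shLuc, 8.21 and 8.39 with shSYK_1 and 7.45 and 7.44 with shSYK_2. In U937 TRIP13 was 7.61, 7.75 and 7.60 with shLuc, 7.76 and 7.58 with shSYK_1 and 5.42 and 5.40 with shSYK_2. In HL-60 TRIP13 was 8.41, 8.43 and 8.38 with shLuc, 8.21 and 8.13 with shSYK_1 and 6.88 and 7.07 with shSYK_2. The shSYK_2 arrays were far below both other groups in every line, HL-60 included.

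TRIP13 fell with shSYK_2 in each line: the log2 change was -1.32 in MOLM-14 (SE 0.0804, limma adjusted p = 1.92e-08), -2.24 in U937 (SE 0.0804, limma adjusted p = 4.31e-11) and -1.43 in HL-60 (SE 0.0804, limma adjusted p = 5.88e-09). In HL-60 the median of the 55 genes with that hairpin was -0.09. Both HL-60 shSYK_2 replicates had low TRIP13, and without replicate 1 the HL-60 change was -1.33. Averaged over the lines the level with shSYK_2 was 0.316 times that with shLuc. With shSYK_1 TRIP13 fell in MOLM-14 (-0.45) and HL-60 (-0.24) and was at 0.03 in U937.

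Among the checkpoint kinases and their partners, BUB1 fell with both hairpins in MOLM-14 (-0.39 and -0.46) and with shSYK_2 in U937 (-0.67), and TTK, which starts the checkpoint signal, fell in those same comparisons (-0.37, -0.34 and -0.81), as did MAD2L1, the checkpoint's inhibitor of the APC/C (-0.55, -0.28 and -0.64). BUB1B fell with shSYK_2 in U937 (-0.89) and did not pass in MOLM-14 (-0.14 and -0.20). BUB3 fell with shSYK_1 in MOLM-14 (-0.34) and with shSYK_2 in U937 (-0.26). The other 3 BUB3 probe sets changed by -0.56, -0.59 and -0.44 in the former comparison, which passed, and by -0.23, -0.02 and 0.03 in the latter, which did not, so the MOLM-14 fall was on all 4 probe sets and the U937 fall on 1.

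At the kinetochore, ZWINT, which anchors outer kinetochore proteins, fell with shSYK_2 in U937 (-1.30) and with both hairpins in MOLM-14 (-0.28 and -0.56). CENPA, the histone that marks the centromere, fell in the same comparisons (-0.80, -0.45 and -0.74), as did CENPF (-0.88, -0.22 and -0.39) and CENPN (-0.70, -0.27 and -0.58), which binds CENPA nucleosomes. The kinetochore motor CENPE fell with shSYK_2 in MOLM-14 (-0.43) and U937 (-0.64), and with shSYK_1 its values were -0.01, 0.001 and 0.02, none of which passed.

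NDC80, the microtubule-binding subunit of the outer kinetochore, rose with both hairpins in HL-60. NDC80 log2 intensity in MOLM-14 was 7.42, 7.35 and 7.39 with shLuc, 7.25 and 7.38 with shSYK_1 and 7.19 and 7.24 with shSYK_2. In U937 NDC80 was 7.16, 6.98 and 7.04 with shLuc, 7.42 and 7.58 with shSYK_1 and 6.58 and 6.55 with shSYK_2. In HL-60 NDC80 was 7.62, 7.58 and 7.60 with shLuc, 8.19 and 8.21 with shSYK_1 and 7.84 and 7.93 with shSYK_2. In HL-60 both hairpin groups lay above every shLuc array, while in U937 shSYK_1 lay above and shSYK_2 below. NDC80 rose in HL-60 by 0.60 with shSYK_1 (SE 0.0700, limma adjusted p = 7.10e-06) and 0.28 with shSYK_2, and in U937 it rose by 0.44 with shSYK_1 and changed by -0.49 with shSYK_2, a fall that passed.

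Of 4 measured genes of the APC/C and sister separation, 3 fell with shSYK_2 in U937, 2 in MOLM-14 and 1 in HL-60, where 1 rose. With shSYK_1, 3 rose in U937, 1 in HL-60 and 0 in MOLM-14, and 0 fell in each line. CDC20 activates the APC/C once the checkpoint is satisfied. CDC20 log2 intensity in MOLM-14 was 9.43, 9.17 and 9.51 with shLuc, 9.09 and 9.33 with shSYK_1 and 8.95 and 9.02 with shSYK_2. In U937 CDC20 was 9.55, 9.54 and 9.53 with shLuc, 9.84 and 9.83 with shSYK_1 and 8.78 and 8.74 with shSYK_2. In HL-60 CDC20 was 9.77, 9.77 and 9.71 with shLuc, 9.76 and 9.77 with shSYK_1 and 9.83 and 9.68 with shSYK_2. The groups parted clearly in U937 and overlapped in HL-60. CDC20 rose by 0.30 with shSYK_1 in U937 and fell with shSYK_2 in U937 (-0.78) and MOLM-14 (-0.38), and its HL-60 values were 0.02 and 0.004.

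UBE2S extends ubiquitin chains on APC/C targets and passed in 1 of the 6 comparisons. UBE2S log2 intensity in MOLM-14 was 9.34, 9.18 and 9.08 with shLuc, 9.04 and 8.95 with shSYK_1 and 9.04 and 9.01 with shSYK_2. In U937 UBE2S was 9.69, 9.64 and 9.67 with shLuc, 10.0 and 9.87 with shSYK_1 and 9.37 and 9.55 with shSYK_2. In HL-60 UBE2S was 10.14, 9.97 and 9.97 with shLuc, 9.99 and 9.80 with shSYK_1 and 9.52 and 9.88 with shSYK_2. The shSYK_2 arrays lay below shLuc in every line, in HL-60 mainly through replicate 1. The HL-60 fall with shSYK_2 passed (-0.32, limma adjusted p = 0.0360) and the U937 value did not (-0.20, limma adjusted p = 0.227).

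ESPL1 makes separase, the protease that cuts cohesin at anaphase. ESPL1 log2 intensity in MOLM-14 was 7.50, 7.56 and 7.42 with shLuc, 7.39 and 7.53 with shSYK_1 and 7.02 and 6.96 with shSYK_2. In U937 ESPL1 was 7.51, 7.35 and 7.38 with shLuc, 7.94 and 7.71 with shSYK_1 and 6.54 and 6.65 with shSYK_2. In HL-60 ESPL1 was 7.57, 7.74 and 7.51 with shLuc, 8.05 and 8.06 with shSYK_1 and 7.80 and 7.82 with shSYK_2. With shSYK_1 the arrays were above shLuc in U937 and HL-60, and with shSYK_2 they were below shLuc in MOLM-14 and U937. ESPL1 rose by 0.41 and 0.44 with shSYK_1 in U937 and HL-60 and fell with shSYK_2 in MOLM-14 (-0.51) and U937 (-0.82). PTTG1, the securin that holds separase back, rose with shSYK_1 in U937 (0.24) and with shSYK_2 in HL-60 (0.25) and fell with shSYK_2 in U937 (-0.71).

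All 7 kinesins fell with shSYK_2 in U937 (median -0.87) and 6 in MOLM-14 (-0.43), and in HL-60 0 fell. With shSYK_1, 3 fell in MOLM-14 (12.5% of all genes), and 2 rose in U937 (8.53%) and 2 in HL-60 (12.5%). KIF11, which pushes the spindle poles apart, fell with both hairpins in MOLM-14 (-0.36 and -0.48) and with shSYK_2 in U937 (-0.89). KIFC1, which pulls poles together, fell with shSYK_2 in MOLM-14 (-0.43) and U937 (-0.97) and rose with shSYK_1 in U937 (0.26). The microtubule depolymerase KIF2C fell with shSYK_2 in MOLM-14 (-0.51) and U937 (-0.87), and so did the chromokinesin KIF4A (-0.35 and -0.78), which rose with shSYK_1 in HL-60 (0.31). KIF23 of the central spindle fell with shSYK_1 in MOLM-14 (-0.38) and with shSYK_2 in U937 (-0.77).

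KIF14, a kinesin of cytokinesis, had values below 0 in all 6 comparisons. KIF14 log2 intensity in MOLM-14 was 8.78, 8.72 and 8.64 with shLuc, 8.26 and 8.01 with shSYK_1 and 7.97 and 7.93 with shSYK_2. In U937 KIF14 was 8.29, 8.28 and 8.33 with shLuc, 8.29 and 8.03 with shSYK_1 and 7.57 and 7.29 with shSYK_2. In HL-60 KIF14 was 8.34, 8.44 and 8.43 with shLuc, 8.27 and 8.36 with shSYK_1 and 8.20 and 8.14 with shSYK_2. The shSYK_2 arrays lay below shLuc in every line, and shSYK_1 did so in MOLM-14. KIF14 fell in MOLM-14 with shSYK_1 (-0.58) and shSYK_2 (-0.77) and in U937 with shSYK_2 (-0.87, SE 0.0958, limma adjusted p = 6.10e-06).

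KIF20A, a kinesin that carries AURKB to the central spindle, parted by hairpin in U937 and HL-60. KIF20A log2 intensity in MOLM-14 was 8.07, 8.09 and 8.15 with shLuc, 8.01 and 7.93 with shSYK_1 and 7.79 and 7.64 with shSYK_2. In U937 KIF20A was 8.23, 8.04 and 8.04 with shLuc, 8.52 and 8.44 with shSYK_1 and 7.56 and 7.53 with shSYK_2. In HL-60 KIF20A was 7.0, 6.95 and 6.99 with shLuc, 7.24 and 7.40 with shSYK_1 and 6.50 and 6.94 with shSYK_2. In both of these lines shSYK_1 lay above every shLuc array and shSYK_2 below. KIF20A rose with shSYK_1 in U937 (0.38) and HL-60 (0.34) and fell with shSYK_2 in MOLM-14 (-0.39) and U937 (-0.56). Its HL-60 value with shSYK_2 was -0.26 and did not pass (limma adjusted p = 0.0797). Without HL-60 shSYK_2 replicate 1 that value was -0.04.

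All 6 spindle microtubule proteins fell with shSYK_2 in MOLM-14 and U937 (medians -0.49 and -0.70), and 0 fell in HL-60. NUSAP1, which bundles spindle microtubules, changed by -0.40 and -0.73 in MOLM-14 and U937 and rose with shSYK_1 in HL-60 (0.37). On its other probe set the shSYK_2 changes were -1.08 and -1.27. DLGAP5, a stabiliser of kinetochore fibres, fell with both hairpins in MOLM-14 (-0.21 and -0.49) and with shSYK_2 in U937 (-0.85) and rose with shSYK_1 in U937 (0.34) and HL-60 (0.22). HMMR, which binds the spindle and hyaluronan, fell with shSYK_2 in MOLM-14 (-0.32) and U937 (-0.45) and with shSYK_1 in MOLM-14 (-0.39). On the other HMMR probe set the MOLM-14 value with shSYK_2 (-0.05) did not pass. The U937 fall with shSYK_2 (-0.43) and the MOLM-14 fall with shSYK_1 (-0.31) passed there. TACC3, which works with AURKA at the spindle, fell with shSYK_2 in MOLM-14 (-0.49) and U937 (-0.47).

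SPAG5 makes astrin, a spindle and kinetochore protein. SPAG5 log2 intensity in MOLM-14 was 7.67, 7.52 and 7.54 with shLuc, 7.57 and 7.55 with shSYK_1 and 7.13 and 7.04 with shSYK_2. In U937 SPAG5 was 7.18, 7.14 and 7.17 with shLuc, 7.56 and 7.53 with shSYK_1 and 6.31 and 6.22 with shSYK_2. In HL-60 SPAG5 was 7.75, 7.67 and 7.82 with shLuc, 7.98 and 8.0 with shSYK_1 and 7.57 and 7.73 with shSYK_2. In U937 shSYK_1 lay above and shSYK_2 below every shLuc array. SPAG5 rose with shSYK_1 in U937 (0.38) and HL-60 (0.25) and fell with shSYK_2 in MOLM-14 (-0.49) and U937 (-0.89).

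ASPM, which focuses the spindle poles, fell with both hairpins in MOLM-14. ASPM log2 intensity in MOLM-14 was 8.94, 8.86 and 8.96 with shLuc, 8.53 and 8.52 with shSYK_1 and 8.42 and 8.42 with shSYK_2. In U937 ASPM was 7.71, 7.76 and 7.67 with shLuc, 7.85 and 7.76 with shSYK_1 and 7.03 and 7.06 with shSYK_2. In HL-60 ASPM was 8.73, 8.77 and 8.72 with shLuc, 8.70 and 8.60 with shSYK_1 and 8.41 and 8.72 with shSYK_2. The MOLM-14 groups did not overlap, and in HL-60 the shSYK_2 and shLuc arrays did. ASPM changed by -0.39 and -0.50 in MOLM-14 and by -0.66 with shSYK_2 in U937, and all 3 of these passed.

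Condensin and chromosome structure genes fell with shSYK_2 in U937 (7 of 7, median -0.77) and MOLM-14 (6 of 7, -0.48), and 0 of 7 fell in HL-60. TOP2A, the topoisomerase that untangles sister chromatids, had the second largest average fall with shSYK_2 among the 55 genes. TOP2A log2 intensity in MOLM-14 was 10.27, 10.36 and 10.25 with shLuc, 10.16 and 9.96 with shSYK_1 and 9.10 and 9.20 with shSYK_2. In U937 TOP2A was 10.44, 10.29 and 10.41 with shLuc, 10.23 and 10.23 with shSYK_1 and 9.52 and 9.03 with shSYK_2. In HL-60 TOP2A was 10.47, 10.33 and 10.41 with shLuc, 10.72 and 10.65 with shSYK_1 and 10.09 and 10.26 with shSYK_2. The shSYK_2 arrays were below shLuc in every line, and the pair in U937 lay apart from each other. TOP2A fell with shSYK_2 in both monocytic lines, with a change of -1.14 in MOLM-14 (SE 0.111, limma adjusted p = 3.15e-06) and -1.10 in U937 (SE 0.111, limma adjusted p = 2.43e-06), and its other probe set changed by -0.48 and -0.81. With shSYK_1 it was at -0.24, -0.15 and 0.28 in MOLM-14, U937 and HL-60, none of which passed.

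MKI67 makes the proliferation marker Ki-67, which coats mitotic chromosomes. On its brightest probe set it rose with shSYK_1 and fell with shSYK_2 in MOLM-14 and U937. MKI67 log2 intensity in MOLM-14 was 9.08, 9.34 and 9.33 with shLuc, 9.44 and 9.57 with shSYK_1 and 8.54 and 8.53 with shSYK_2. In U937 MKI67 was 9.07, 8.95 and 9.11 with shLuc, 9.48 and 9.31 with shSYK_1 and 8.04 and 8.12 with shSYK_2. In HL-60 MKI67 was 8.62, 8.64 and 8.63 with shLuc, 9.22 and 9.40 with shSYK_1 and 8.56 and 8.39 with shSYK_2. In every line the shSYK_1 arrays were above and the shSYK_2 arrays below every shLuc array. On this probe set MKI67 rose with shSYK_1 in each line (MOLM-14 0.26, U937 0.35, HL-60 0.68), the one gene of the 55 to do so. The HL-60 rise had an SE of 0.0913 and a limma adjusted p = 2.91e-05. It fell with shSYK_2 in MOLM-14 (-0.71) and U937 (-0.97). Its other 3 probe sets changed with shSYK_1 by -0.43, 0.05 and -0.14 in MOLM-14, -0.07, 0.40 and -0.03 in U937 and 0.54, 0.52 and 0.31 in HL-60. All 4 probe sets had a positive value in HL-60. In MOLM-14 the rise of the brightest probe set was not seen on the others, and the value of -0.43 passed as a fall (limma adjusted p = 0.0495). In U937 the value of 0.40 passed, and those of -0.07 and -0.03 did not. With shSYK_2 the other 3 were at -1.10, -1.09 and -0.82 in U937.

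SMC4, an ATPase subunit of condensin, fell with both hairpins in U937. SMC4 log2 intensity in MOLM-14 was 11.13, 11.16 and 11.16 with shLuc, 11.01 and 11.03 with shSYK_1 and 11.30 and 11.26 with shSYK_2. In U937 SMC4 was 11.02, 11.10 and 10.94 with shLuc, 10.53 and 10.45 with shSYK_1 and 10.55 and 10.64 with shSYK_2. In HL-60 SMC4 was 10.16, 10.12 and 10.06 with shLuc, 10.28 and 10.14 with shSYK_1 and 9.87 and 10.03 with shSYK_2. In U937 both hairpin groups were below shLuc and shSYK_1 was the lower of them, while in MOLM-14 the shSYK_2 arrays were above shLuc. The U937 changes were -0.53 with shSYK_1 and -0.43 with shSYK_2, and the MOLM-14 value with shSYK_2 (0.13) did not pass. Other SMC4 probe sets differed. At a mean log2 intensity of 9.50 the U937 changes were -0.36 and -0.65, so the order of the hairpins was reversed. At 5.21 they were 0.0006 and -0.22, which did not pass, and SMC4 fell with shSYK_2 in MOLM-14 (-0.58) and HL-60 (-0.55). The average difference between hairpins was -0.10 on the former, which did not pass, and -0.53 on the latter, which passed. SMC2, the partner of SMC4, rose with shSYK_1 in U937 (0.39) and fell with shSYK_2 there (-0.77) and with both hairpins in MOLM-14 (-0.37 and -0.35). On its other probe set SMC2 fell with shSYK_2 in U937 (-0.64) and in HL-60 (-0.60). The shSYK_1 value in U937 (0.009) and the MOLM-14 values (-0.40 and -0.39) did not pass on that probe set. The condensin I subunits NCAPD2 (-0.48 and -0.59), NCAPG (-0.36 and -0.72) and NCAPH (-0.48 and -0.85) fell with shSYK_2 in MOLM-14 and U937, and NCAPG rose with it in HL-60 (0.26). On the other NCAPG probe set the HL-60 value with shSYK_2 was -0.04 and did not pass. That probe set fell with shSYK_1 in MOLM-14 (-0.36).

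**Figure D4:**
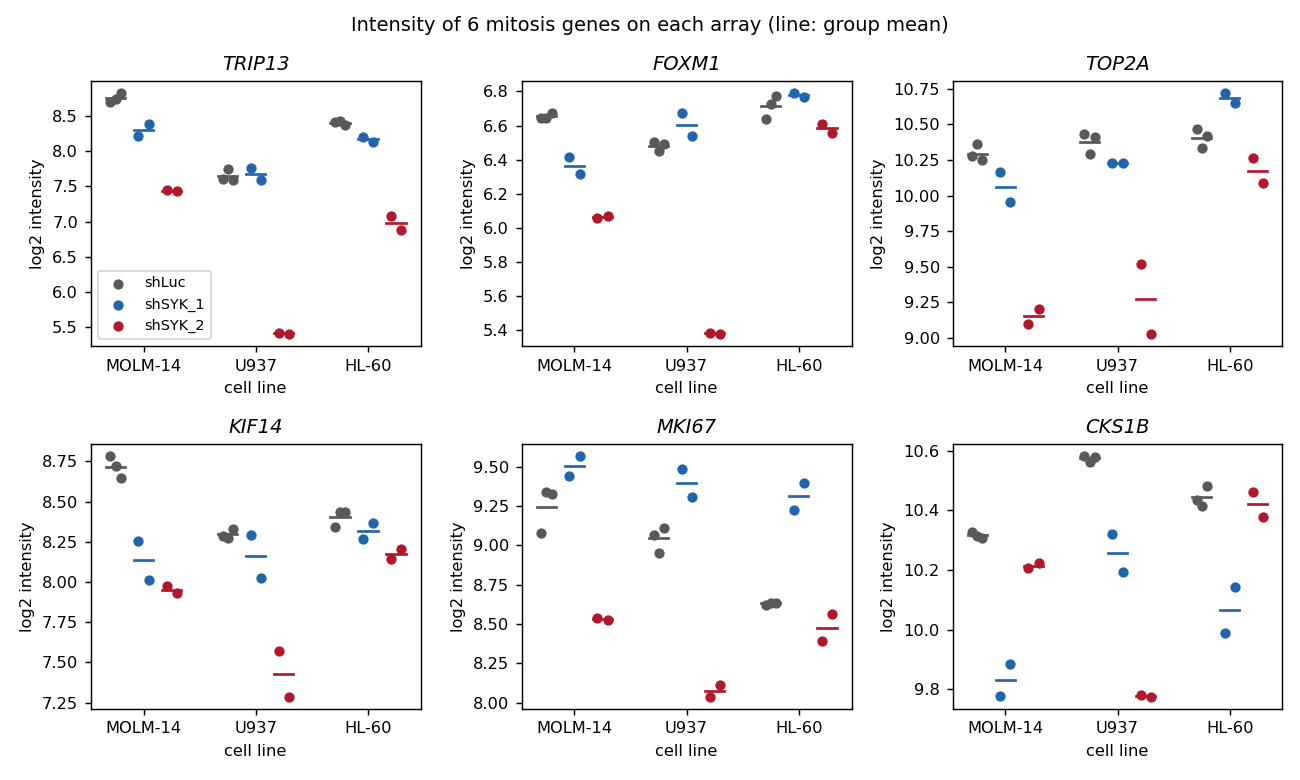
Log2 intensity (vertical axes) of TRIP13, FOXM1, TOP2A, KIF14, MKI67 and CKS1B on each array, by line (horizontal axes) and hairpin (grey shLuc, blue shSYK_1, red shSYK_2); points are arrays and lines are group means. TRIP13 is low with shSYK_2 in all 3 lines, MKI67 lies above shLuc with shSYK_1 and below it with shSYK_2, and CKS1B is low with shSYK_1 in every line.

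The 3 cytokinesis genes all fell with shSYK_2 in U937 (median -0.81). RACGAP1, part of the central spindle complex that places the contractile ring, fell with shSYK_2 in all 3 lines. RACGAP1 log2 intensity in MOLM-14 was 9.16, 9.03 and 9.15 with shLuc, 8.90 and 8.88 with shSYK_1 and 8.69 and 8.64 with shSYK_2. In U937 RACGAP1 was 8.84, 8.87 and 8.80 with shLuc, 8.96 and 8.75 with shSYK_1 and 8.0 and 7.94 with shSYK_2. In HL-60 RACGAP1 was 9.48, 9.49 and 9.50 with shLuc, 9.55 and 9.55 with shSYK_1 and 9.10 and 9.31 with shSYK_2. The shSYK_2 arrays lay below shLuc in each line. RACGAP1 changed by -0.45, -0.86 and -0.28 with shSYK_2, and all 3 falls passed. Without HL-60 shSYK_2 replicate 1 the HL-60 value did not pass.

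PRC1, which bundles the midzone microtubules, fell with shSYK_1 in MOLM-14 and with shSYK_2 in U937. PRC1 log2 intensity in MOLM-14 was 8.90, 8.80 and 8.81 with shLuc, 8.13 and 8.30 with shSYK_1 and 8.60 and 8.66 with shSYK_2. In U937 PRC1 was 9.21, 9.23 and 9.11 with shLuc, 9.10 and 8.97 with shSYK_1 and 8.41 and 8.34 with shSYK_2. In HL-60 PRC1 was 8.78, 8.86 and 8.84 with shLuc, 8.69 and 8.69 with shSYK_1 and 8.91 and 9.02 with shSYK_2. In MOLM-14 and HL-60 the shSYK_1 arrays were below the shSYK_2 arrays, and in U937 the order was the reverse. The MOLM-14 change with shSYK_1 was -0.62 (SE 0.0715, limma adjusted p = 6.54e-06) and the U937 change with shSYK_2 was -0.81.

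ECT2, the exchange factor that activates RhoA at the cleavage site, parted by hairpin. ECT2 log2 intensity in MOLM-14 was 7.41, 7.22 and 7.28 with shLuc, 7.39 and 7.16 with shSYK_1 and 7.19 and 6.93 with shSYK_2. In U937 ECT2 was 6.87, 6.72 and 6.81 with shLuc, 7.17 and 7.35 with shSYK_1 and 6.31 and 6.27 with shSYK_2. In HL-60 ECT2 was 7.31, 7.44 and 7.49 with shLuc, 7.99 and 7.68 with shSYK_1 and 7.28 and 7.35 with shSYK_2. With shSYK_1 it lay above every shLuc array in U937 and HL-60. With shSYK_1 ECT2 rose in U937 (0.46) and HL-60 (0.42), and it changed by -0.51 with shSYK_2 in U937, a fall that passed.

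The difference between the hairpins was tested directly. Averaged over the lines, 50 of 55 genes were lower with shSYK_2 than with shSYK_1 and 0 higher (median -0.38), against 18.4% of all genes that were lower and 17.3% that were higher. TRIP13 (-1.44, SE 0.0508), MKI67 (-1.04, SE 0.0577), TOP2A (-0.79, SE 0.0705) and SPAG5 (-0.70, SE 0.0443) differed most. CKS1B (0.09), CKS2 (0.08), BUB3 (0.08), SMC4 (0.04) and PRC1 (0.01) did not pass, with SE of 0.0404 to 0.0465. By line, 53 were lower with shSYK_2 in U937 (background 11.1%, and 11.9% higher), 20 in MOLM-14, where 6 were higher (background 12.8% and 13.2%), and 15 in HL-60, where 2 were higher (background 12.6% and 9.59%). In HL-60 the number called was 6 without shSYK_2 replicate 1 and 7 without shSYK_1 replicate 1, in place of 17, and 0 with that shSYK_2 array placed in shSYK_1.

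**Figure D5:**
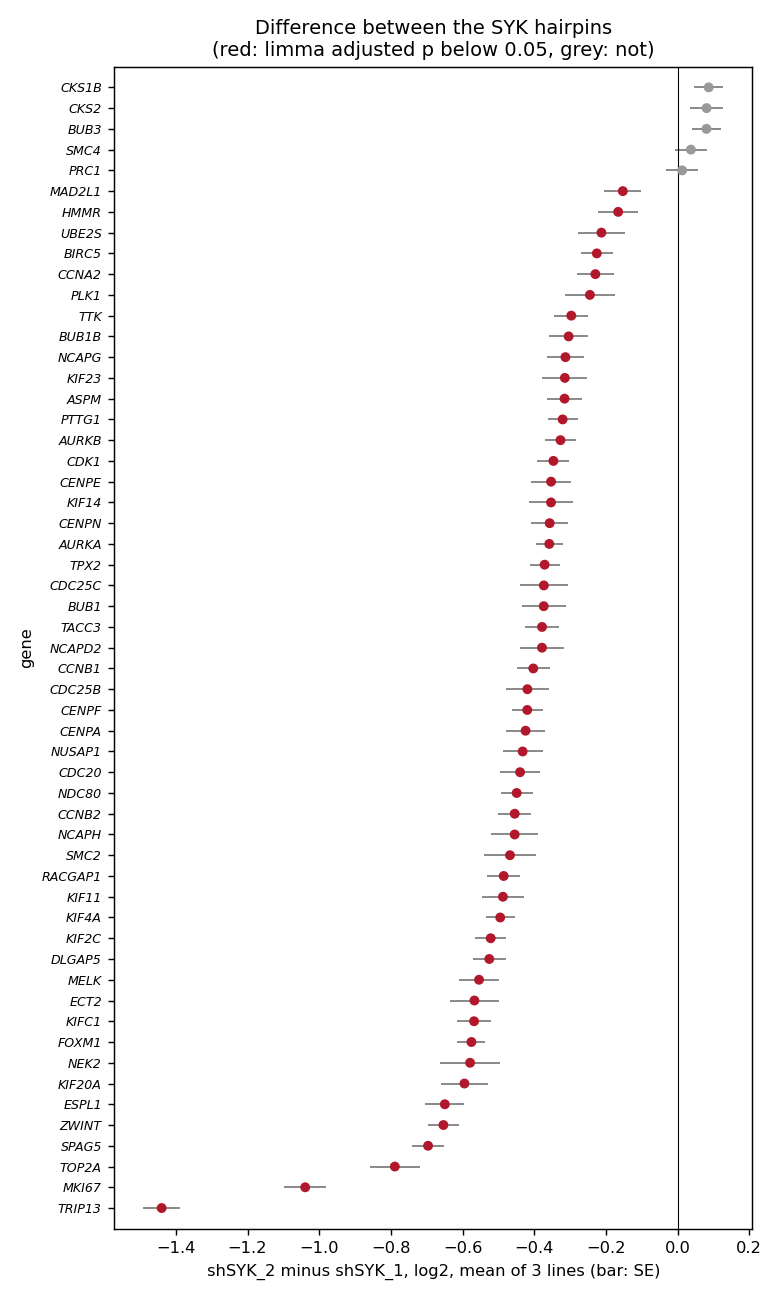
Difference between the SYK hairpins for each of the 55 mitosis genes (vertical axis), as shSYK_2 minus shSYK_1 in log2 averaged over the 3 lines (horizontal axis), with bars of 1 SE. Red points passed (limma adjusted p below 0.05) and grey points did not; all 50 red points lie below 0 and TRIP13 is lowest at -1.44.

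The response to a hairpin was then compared between lines. The shSYK_2 change was more negative in U937 than in HL-60 for 48 genes and less negative for 0 (background 4.4% lower and 4.27% higher), among them ZWINT by -1.15, KIFC1 by -1.10 and CDC25B by -1.03. It was more negative in MOLM-14 than in HL-60 for 30 and less for 0 (background 5.25% and 5.65%), among them TOP2A by -0.91, ESPL1 by -0.71 and NCAPD2 by -0.68. Between MOLM-14 and U937 it was more negative in U937 for 19 genes and in MOLM-14 for 0 (background 3.35% and 2.96%), including TRIP13 (a difference of 0.92), ZWINT (0.74) and CKS1B (0.70). The counts of MOLM-14 against HL-60 and against U937 were 19 and 12 without MOLM-14 shSYK_2 replicate 1, and the latter was 12 without U937 shSYK_2 replicate 2. Without HL-60 shSYK_2 replicate 1 the counts of U937 and of MOLM-14 against HL-60 were 46 and 29, and with that array placed in shSYK_1 they were 36 and 15.

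For shSYK_1 most differences were between MOLM-14 and the other lines. The change was more negative there than in U937 for 24 genes and less negative for 1 (background 4.18% and 4.55%), among them SMC2 by -0.76, MELK by -0.71 and BUB1 by -0.66. On the other SMC2 probe set the U937 rise was not seen (0.009). The change in MOLM-14 was more negative than in HL-60 for 17 and less for 0 (background 4.67% and 3.44%), among them NDC80 by -0.67, NUSAP1 by -0.55 and HMMR by -0.53. Between U937 and HL-60, SMC4 alone was called (-0.62, background 5.19% lower and 3.63% higher), and 2 genes were called without U937 shSYK_2 replicate 1 or replicate 2 and 3 without HL-60 shSYK_2 replicate 1 or replicate 2. When the array with conflicting labels was counted as shSYK_1, the counts of MOLM-14 against U937 and HL-60 were 15 and 5. The MOLM-14 to HL-60 count was 3 without HL-60 shSYK_1 replicate 1, 9 without MOLM-14 shSYK_1 replicate 2, 10 without HL-60 shLuc replicate 3 and 11 without either MOLM-14 shSYK_1 replicate 1 or MOLM-14 shLuc replicate 1.

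The starting levels of single genes differed between lines. Between the shLuc groups, 16 of the 55 genes were lower and 22 higher in MOLM-14 than in U937 (background 26.4% and 25.7%). ZWINT was 1.82 log2 higher in MOLM-14 and TPX2 1.43 higher in U937 than in HL-60. MOLM-14 against HL-60 gave 13 lower and 21 higher (background 26.4% and 23%), with BUB3 at 1.39, and U937 against HL-60 gave 23 lower and 21 higher (background 27% and 25.8%). The median starting differences were 0.13, 0.02 and -0.11, small beside those of single genes.

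Other probe sets of the same genes gave a further reading of the same RNA. Of 33 other probe sets of 20 of the genes, 22 were lower and 0 higher with shSYK_2 in U937, against 7.25% and 6.54% of all probe sets, and 31 had the sign of the brightest probe set. With shSYK_2, 17 were lower and 0 higher in MOLM-14 (all probe sets 7.82% and 6.59%) and 5 were lower and 0 higher in HL-60 (all 10.9% and 8.28%). The HL-60 falls were on probe sets of BUB1 (-0.48), CCNA2 (-0.29), CENPN (-0.60), SMC2 (-0.60) and SMC4 (-0.55). These HL-60 values include the array with conflicting labels. With shSYK_1, 12 were lower and 0 higher in MOLM-14 (all 10.9% and 10.7%), 2 were lower and 2 higher in U937 (all 6.72% and 7.19%) and 2 were lower and 7 higher in HL-60 (all 10.1% and 10.4%). In the average difference between hairpins, 21 were lower and 4 higher with shSYK_2 (all 17.2% and 14.5%), and 27 had the sign of the brightest probe set. The 4 that were higher were 1 of BIRC5 (0.60), whose brightest probe set was lower, and 3 of BUB3 (0.24, 0.16 and 0.36), so the count of 50 lower genes above holds for the brightest probe sets. These calls were made among all 19724 probe sets with 1 gene symbol.

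Other genes of the pathway were counted too. Of 77 further mitosis genes, 40 fell and 3 rose with shSYK_2 in U937 (median -0.40), 35 fell and 3 rose in MOLM-14 (-0.24) and 12 fell and 3 rose in HL-60 (-0.12). The shares of all genes that fell and rose were 7.92% and 8.32%, 8.12% and 8.47%, and 11.4% and 10%, so the HL-60 count was near the background. With shSYK_1 the counts were 18 lower and 7 higher in MOLM-14, 4 and 14 in U937, and 7 and 11 in HL-60, against 12.5% and 13%, 8.37% and 8.53%, and 11.8% and 12.5% of all genes, and the HL-60 counts were near the background here too. By list, shSYK_2 in U937 lowered 15 of 25 kinetochore and centromere genes, 12 of 19 kinesin, spindle and centrosome genes, 3 of 3 condensin II genes, 5 of 9 mitotic entry regulators, 3 of 10 cohesin genes and 2 of 11 genes of the APC/C, with medians of -0.51, -0.76, -0.50, -0.37, -0.20 and -0.08.

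Among these genes and the transcription regulators below, the largest average differences with shSYK_2 lower were those of PLK4 (-1.03), the kinase of centriole copying, SPC25 (-0.88) of the NDC80 complex, PBK (-0.84), GTSE1 (-0.83), CEP55 (-0.78), which acts in abscission, and the cohesin subunit SMC1A (-0.78). PLK4 fell with shSYK_2 in every line (-1.09 in MOLM-14, -1.63 in U937, -0.60 in HL-60), and SMC1A did too (-0.62, -0.79 and -0.64). The HL-60 values with shSYK_2 in this paragraph include the array with conflicting labels. The largest differences with shSYK_2 higher were those of CLASP1 (0.87), a microtubule stabiliser at kinetochores that fell with shSYK_1 in every line (-1.004, -0.99 and -0.71, in the same order) and with shSYK_2 in HL-60 (-0.36), the APC/C subunits ANAPC1 (0.29), ANAPC13 (0.22) and ANAPC5 (0.20), the phosphatase subunit PPP2R2A (0.26) and CDK7 (0.19).

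Of 14 transcription regulators of such genes, 6 fell and 2 rose with shSYK_2 in U937, against 7.92% and 8.32% of all genes. In MOLM-14, 4 fell and 0 rose, against 8.12% and 8.47%. The rises are too few to be read against the background. MYBL2, which makes B-MYB, fell with both hairpins in MOLM-14 (-0.38 and -0.76) and with shSYK_2 in U937 (-1.39, SE 0.104, limma adjusted p = 9.73e-08), and its HL-60 value with shSYK_2 was -0.28, which did not pass. E2F1, the activator of S phase genes, passed in 0 of the 6 comparisons (values -0.38 to 0.32). CDKN1A makes the kinase inhibitor p21. It rose with shSYK_1 in U937 (0.60) and HL-60 (0.40), the lines where several mitosis genes rose with that hairpin, and fell with shSYK_2 in MOLM-14 (-0.65).

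Replication genes, which are transcribed earlier in the cell cycle, also fell with shSYK_2 in the monocytic lines. Of 45 genes of DNA replication and nucleotide synthesis, 44 fell with shSYK_2 in U937 (median -0.98), 39 in MOLM-14 (-0.45) and 14 in HL-60 (-0.12). The shares of all genes that fell were 7.92%, 8.12% and 11.4%. With shSYK_1, 35 fell in MOLM-14 (median -0.45), and 10 fell and 3 rose in U937 (-0.06). In HL-60, 24 fell and 2 rose (-0.25), where 4 of the 55 mitosis genes fell and 12 rose. The shares of all genes that fell and rose were 12.5% and 13%, 8.37% and 8.53%, and 11.8% and 12.5%. The rises of replication genes in U937 and HL-60 were not above these shares. The difference between these lists was not tested.

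The promoter motifs were also set beside the changes. The 33 genes with the CHR letters had a median change of -0.78 with shSYK_2 in U937 (from -1.30 to -0.21), and the 15 without them -0.70 (from -2.24 to -0.20). The 37 genes with CCAAT had a median of -0.73 and the 11 without it -0.77. The ranges overlapped, and no test was made.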

How the data were processed

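The deposited values are intensities, one for each probe set on each array. RMA is the tool that the submitters' processing notes name, with no version; it corrects the background, normalises between arrays, compresses low values and makes no detection call. Any other step of the authors before that is not given here. The lowest intensity was 3.23 and the highest 13024.67, so the scale is linear and log2 values were computed, with no pseudocount. Of 22277 probe sets, 19724 (controls left out) had 1 gene symbol by the platform annotation, brought up to date by gene ID (RefSeq, GRCh38.p14), which gave 12165 genes to test. All 21 arrays entered one model of limma 3.58.1 (R 4.3.3) that fitted a mean for each of the 9 groups. It had 12 residual and 4.09 prior degrees of freedom. Tests were two-sided, p-values were adjusted after Benjamini and Hochberg over the genes tested, and "rose", "fell" and "passed" mean an adjusted p below 0.05. Standard errors (SE) are limma's. The number of arrays limits the precision. The fit was tested on simulated data.

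The genes and lists were chosen with earlier results of these data known. All measured genes of the list are named. Values by array are given, within each of 8 roles, for the lowest average shSYK_2 change and the lowest and highest average shSYK_1 change. Of the other pathway genes and regulators, the 6 called with the largest fall and the 6 with the largest rise in the hairpin difference are named, with MYBL2, E2F1 and CDKN1A. The 5 genes with printed promoters were chosen after their values were seen. Alternatives were quantile normalisation, other probe set and dim-gene rules, an added constant, other variance settings, array weights, single-line fits, a replicate block and the regrouping or removal of arrays.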

Additional observations from a re-analysis of the deposited data

Results flagged for a closer look

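The response to a hairpin was compared between lines with an interaction term of the limma model, and these comparisons are listed since the difference itself was tested. No group had 4 or more arrays, so single arrays were not tested as outliers. For shSYK_1, 25 of 55 genes differed between MOLM-14 and U937, with SMC2 at -0.76, MELK at -0.71 and BUB1 at -0.66 (log2, first line minus second line). The U937 rise of SMC2 was not seen on its other probe set (0.009). For shSYK_1 between MOLM-14 and HL-60, 17 differed, with NDC80 at -0.67, NUSAP1 at -0.55 and HMMR at -0.53. Between U937 and HL-60, 1 differed, SMC4 at -0.62. In the same order, the shares of all genes called lower and higher were 4.18% and 4.55%, 4.67% and 3.44%, and 5.19% and 3.63%. The count between U937 and HL-60 was not above its shares. For shSYK_2, 19 differed between MOLM-14 and U937, with TRIP13 at 0.92, ZWINT at 0.74 and CKS1B at 0.70. For shSYK_2 between MOLM-14 and HL-60, 30 differed, with TOP2A at -0.91, ESPL1 at -0.71 and NCAPD2 at -0.68. Between U937 and HL-60, 48 differed, with ZWINT at -1.15, KIFC1 at -1.10 and CDC25B at -1.03. For shSYK_2 the shares of all genes called lower and higher were, in this order, 2.96% and 3.35%, 5.25% and 5.65%, and 4.4% and 4.27%. HL-60 shSYK_2 replicate 1, whose labels conflict, enters every comparison of shSYK_2 with HL-60.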

How the results depend on the processing

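Counts are of the 55 mitosis genes called in either direction. The share of all genes called also changed between the alternatives. The conflict in the labels of HL-60 shSYK_2 replicate 1, 2 arrays per hairpin and line, and the lack of a detection call limit these results. The counts for shSYK_2 in MOLM-14 and U937, for both averages, for the hairpin difference in MOLM-14, in U937 and on average, for the shSYK_2 response between U937 and HL-60, and between the U937 and HL-60 controls stayed within 1.5 times the main count under every alternative run. SYK kept its direction and its call in all of them. Changing 1 choice moved the others as follows, and the cause was not tested.

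With quantile normalisation the shSYK_1 response differed between U937 and HL-60 for 2 genes, with the dimmest 40% of genes left out for 3, with 16 added before log2 for 3 and with a trended and robust prior for 5, in place of 1. With 16 added, 28 in place of 17 differed between MOLM-14 and HL-60. With the trended and robust prior, which called 24.3% of all genes for shSYK_2 in HL-60, 13 mitosis genes were called there in place of 8. With array weights that count was 1, the hairpin difference in HL-60 was 7 in place of 17 and the shSYK_2 response between MOLM-14 and U937 was 29 in place of 19. With each line fitted alone, shSYK_1 in HL-60 gave 6 in place of 16, shSYK_2 in HL-60 1 and the hairpin difference there 5. That fit gives no value for averages or for comparisons between lines.

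When the array with conflicting labels was counted as shSYK_1, that hairpin gave 10 in U937 in place of 16 and 8 in HL-60, shSYK_2 in HL-60 gave 1 and the hairpin difference there 0. That 0 is from limma, and the same fit called 0.263% of all genes. The shSYK_1 response then differed for 15 between MOLM-14 and U937 in place of 25 and for 5 between MOLM-14 and HL-60, and the shSYK_2 response for 12 and for 15 in place of 19 and 30.

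The labels number the replicates but give no shared batch, and the deviations of arrays with the same number correlated at -0.214 to 0.0918, so the numbers are not taken as pairs. With the number as a replicate block, counts were 9 for shSYK_1 in U937, 7 for shSYK_1 and 2 for shSYK_2 in HL-60, 11 for the hairpin difference in HL-60, 4 and 1 for the shSYK_1 response of MOLM-14 against U937 and HL-60, 7 and 10 for that of shSYK_2, and 22 and 21 between the MOLM-14 controls and those of U937 and HL-60.

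Without 1 array in turn, counts ranged from 19 to 32 (shSYK_1, MOLM-14), 5 to 19 (shSYK_1, U937), 8 to 17 (shSYK_1, HL-60), 3 to 17 (shSYK_2, HL-60), 34 to 44 (shSYK_2, MOLM-14) and 51 to 54 (shSYK_2, U937). The hairpin difference ranged from 6 to 22 in HL-60 and 47 to 51 on average. The shSYK_1 response ranged from 17 to 29 (MOLM-14 and U937), 3 to 24 (MOLM-14 and HL-60) and 1 to 3 (U937 and HL-60), and the shSYK_2 response from 12 to 21, 19 to 31 and 41 to 48. With the mean of its probe sets, the BIRC5 hairpin difference was 0.024 (limma adjusted p = 0.689) in place of -0.23.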
